A study of Homo sapiens with 6 samples.

Results

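Of the 62710 genes in the table, 70 protein-coding genes were lowered by IFNβ in HT1080 cells and are described here. They were chosen by 4 measured criteria. The mean of the untreated libraries was at least 2 FPKM, the mean of the IFNβ-treated libraries was at most 0.6 times that, every treated value was below every untreated value, and the gene was not encoded by the mitochondrial genome. FPKM are sequenced fragments scaled for the length of the gene and the depth of the library. Of the 8878 protein-coding, non-mitochondrial genes with an untreated mean of at least 2 FPKM, the 70 are 0.788%. The genes ACO1, MAPKAP1, NT5DC2 and HMOX1, the histones and the collagens were left out by name. This removed 4 genes that met the criteria, namely NT5DC2, ACO1, MAPKAP1 and the histone gene H2AZ2, while HMOX1 had a ratio of 0.61 and did not meet them. Because the fall itself chose these genes, their fall and its size are given as a description without a test.

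HT1080 is an established line grown from a human fibrosarcoma, a cancer of connective tissue. RNA was sequenced from 3 libraries of untreated cells and from 3 libraries of cells kept with human IFNβ at 20 ng/mL for 24 h, and both groups carried no other treatment or genetic change in the labels. The paper's cell culture section also names human IFNβ for this line, whereas its RNA sequencing section names mouse IFNβ, and the labels are followed here. The study asked what IFNβ does to gene expression in these tumor cells. The labels number the libraries of a group from 1 to 3 without saying whether they came from separate cultures, so p-values measure the spread between these libraries, which may be technical. The data hold 1 cell line and 1 time point, and in bulk RNA a gene expressed by fewer cells and a gene expressed less in each cell cannot be told apart.

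IFNβ is a secreted type I interferon that binds a receptor on the cell surface. Janus kinases at the receptor phosphorylate STAT proteins, and the resulting STAT and IRF9 complex enters the nucleus and switches on interferon-stimulated genes. Type I interferons are known for antiviral defence and for slowing the growth of tumor cells. Genes that are lowered in such a response encode proteins of many kinds, and they are described here by what those proteins do.

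The depth, recovered from the FPKM values because each is a whole multiple of the value of a single fragment, was between 22848104 and 32915500 fragments per library. The interferon-stimulated gene ISG15 was between 9.995 and 10.9 FPKM in the untreated libraries and between 1414 and 1468 FPKM in the treated libraries, and IFIT1 was between 0.873 and 0.942 FPKM untreated and between 409 and 415 FPKM treated. Among 8 mesenchymal markers VIM, FN1, SPARC and CDH2 were well expressed, and 2 (FAP and THY1) were under 0.1 FPKM. TGFBI is both a marker of that list and a member here. The 5 leukocyte markers were all under 0.1 FPKM untreated, as were 3 of 4 endothelial markers. Of 7 epithelial markers, EPCAM, CDH1, KRT19 and ESRP1 were under 0.1 FPKM, whereas KRT8 was 33.8 FPKM untreated and 72.6 FPKM treated, and the sum of the list moved with treatment from between 79.9 and 81.8 to between 134 and 140 FPKM. The mitochondrial ribosomal RNAs MT-RNR1 and MT-RNR2 also moved with treatment, from 756 to 245 FPKM and from 1607 to 599 FPKM on average. The part of these shifts in the results below was not tested.

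Across the 70 genes the treated mean was between 0.292 and 0.5997 times the untreated mean, with a median of 0.544. Only 6 of these genes were at most 0.4 times and 19 at most 0.5 times, so 51 lay between 0.5 and 0.6. Their untreated means ran from 2.01 to 244 FPKM with a median of 6.85 FPKM, and 11 genes reached 20 FPKM. The libraries of a group were close, with a median coefficient of variation of 4.87% in untreated and 5.11% in treated libraries. The widest spreads were those of GAGE13 in treated libraries, 74.8%, and of HBG2 in untreated libraries, 21.8%. The strictest of the criteria was the ratio, since 41.2% of the 8878 genes had all treated values below all untreated values. In the upward direction 232 of the same 8878 genes, or 2.61%, had a treated mean at least 1/0.6 times the untreated mean with no overlap. This count keeps the untreated minimum of 2 FPKM, so it leaves out induced genes that were low untreated, such as IFIT1. A fit with limma on log2(FPKM + 0.1) over 20716 genes with a mean of at least 0.1 FPKM called 69 of the 70 genes lower at a Benjamini-Hochberg adjusted p under 0.05, where 17.5% of all genes tested were called lower and 15.2% higher, but the rule had used the same libraries and contrast, which nearly fixes such a call, so nothing is read from this count. The remaining gene was GAGE13. Requiring in addition that the log2 value changed by 1 or more left 15 of the 70, beside 0.739% of all genes tested.

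**Figure D1:**
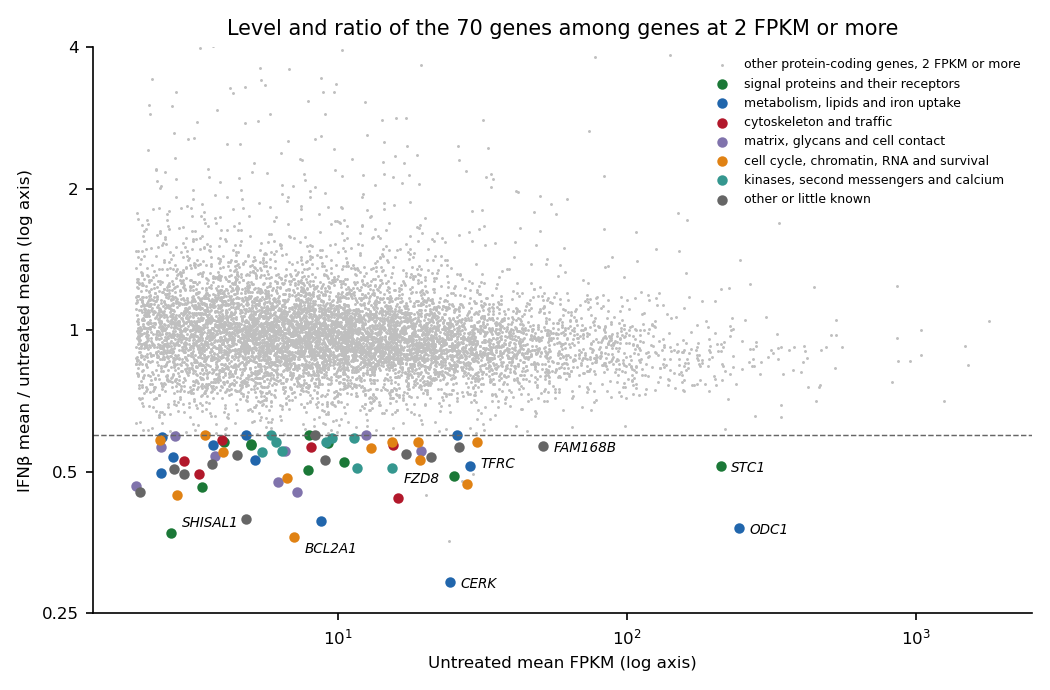
Untreated mean FPKM (horizontal, log axis) against the ratio of treated to untreated mean (vertical, log axis) for protein-coding genes at 2 FPKM or more. Colored points are the 70 genes by role, small grey points are the other genes, the dashed line is the ratio of 0.6, and 55 genes with ratios outside 0.25 to 4 are not drawn. CERK lies lowest at 0.292, and ODC1 and STC1 lie farthest right.

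Close to the limit, the genes just inside were CBX2 at 0.5988, CALB2 at 0.5992 and BCAT1 at 0.5997 times the untreated mean. Those just outside were CPNE2 at 0.6019, SUMF1 at 0.6019 and E2F8 at 0.602. These 6 genes differ in ratio by less than the spread of their own libraries.

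The metabolic enzymes included CERK, which had the lowest ratio of the 70 genes, and ODC1, whose ratio came next after those of BCL2A1 and SHISAL1. CERK (ENSG00000100422, chr22:46684411-46738261 on GRCh38, minus strand, GENCODE release 29) encodes ceramide kinase, which phosphorylates the sphingolipid ceramide. Its level was 24.6, 23.9 and 24.8 FPKM in the untreated libraries and 7.24, 7.32 and 6.84 FPKM in the treated libraries. The groups stood far apart, with a mean ± S.D. of 24.4 ± 0.480 against 7.13 ± 0.257 (n = 3), a ratio of 0.292. ODC1 (ENSG00000115758, chr2:10439968-10448504, minus strand) encodes ornithine decarboxylase, the rate-limiting enzyme of polyamine synthesis, and was the most abundant of the 70 genes. It was at 248.7, 231.2 and 251.9 FPKM untreated and at 94.8, 92.7 and 90.9 FPKM treated. All treated values were under 100 FPKM, and the ratio was 0.381. ATPSCKMT, a lysine methyltransferase of the c subunit of ATP synthase, had 8.66, 8.79 and 8.84 FPKM untreated and 3.63, 3.57 and 3.11 FPKM treated. Its treated libraries were all below 4 FPKM.

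**Figure D2:**
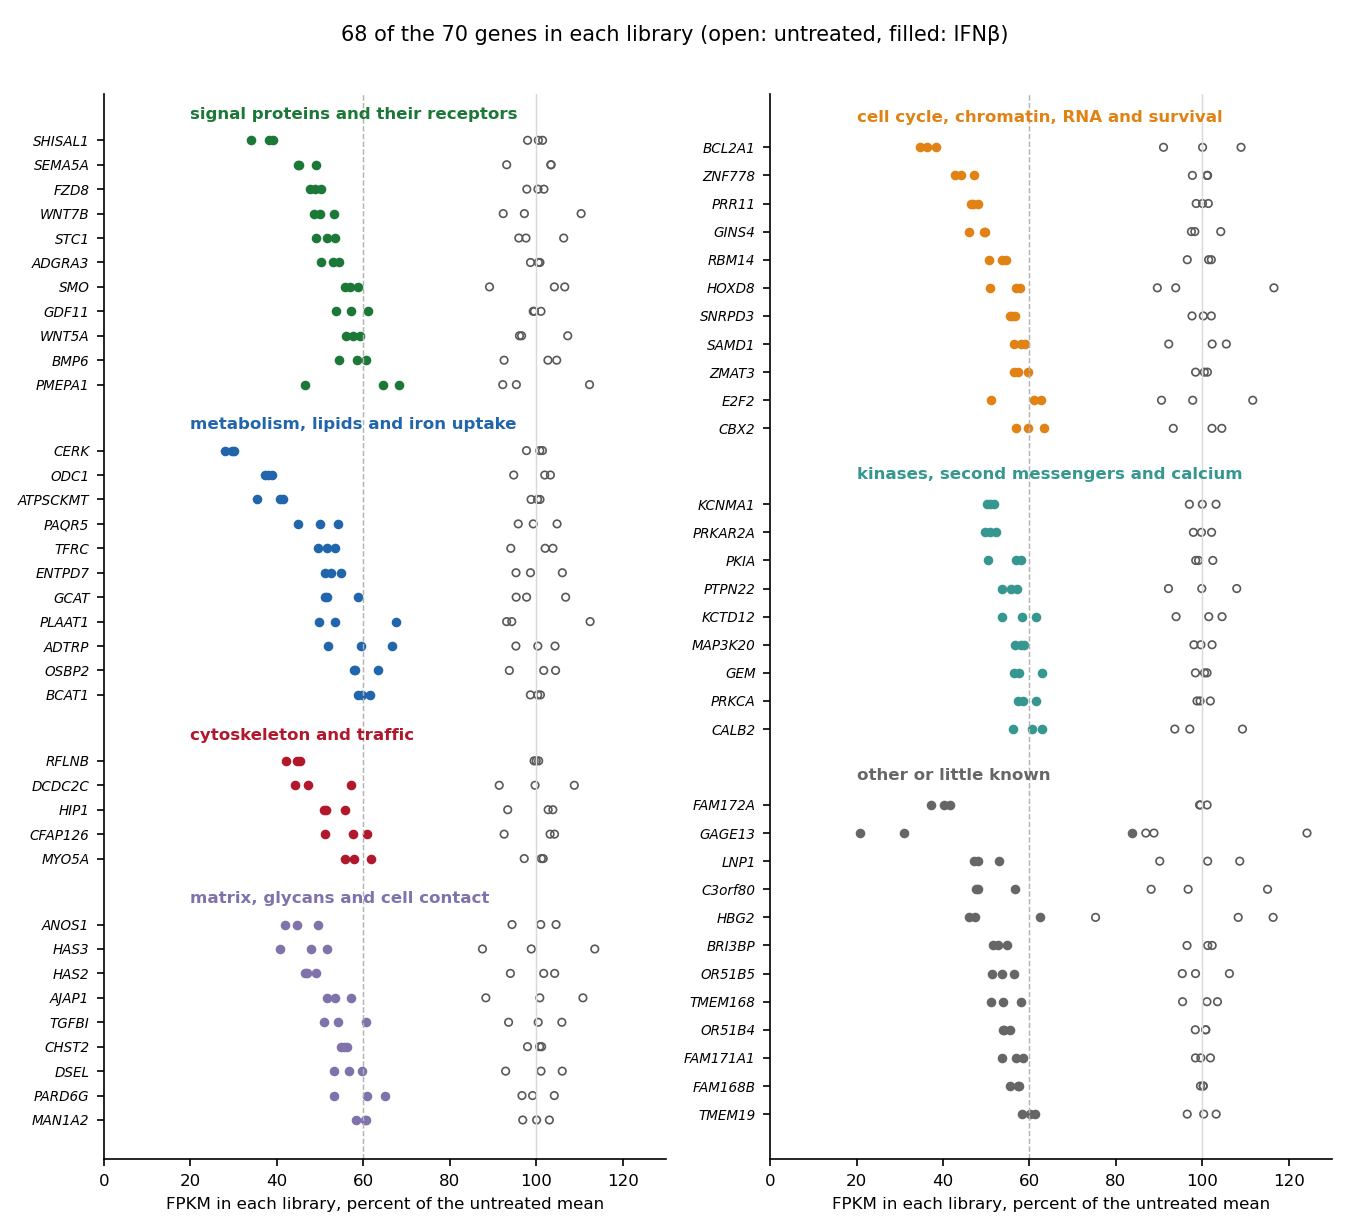
FPKM of 68 of the 70 genes in each library as a percent of that gene's untreated mean (horizontal), with open circles for the 3 untreated and filled circles for the 3 treated libraries. Genes are grouped by role and ordered by ratio, and the dashed line is 60%. Treated values lie left of the untreated values in every row by the choice of the genes, and the treated values of GAGE13 are the most scattered.

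The same group held enzymes of amino acid, nucleotide and membrane lipid metabolism. TFRC, the transferrin receptor that carries iron into the cell, was at 29.3, 27.0 and 29.8 FPKM untreated and at 15.4, 14.8 and 14.2 FPKM treated. BCAT1, the cytosolic aminotransferase of branched-chain amino acids, was at 25.5, 26.1 and 25.9 FPKM untreated and at 15.2, 15.9 and 15.4 FPKM treated. Both were expressed well above the median of the group, which was 5.15 FPKM. The other 6 genes had untreated means of 2.45 to 5.15 FPKM. They were PAQR5 (a membrane progestin receptor, ratio 0.497), ENTPD7 (a nucleoside diphosphatase, 0.529), GCAT (glycine C-acetyltransferase, 0.539), PLAAT1 (a phospholipase and acyltransferase, 0.569), ADTRP (0.593) and OSBP2 (an oxysterol-binding protein, 0.598). PLAAT1 and GCAT were counted with few fragments, 62 and 73 in their lowest libraries.

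The promoters of ODC1, BCL2A1, FZD8 and TFRC are shown because they differ in base composition and in the motifs they hold. Each is 300 bases, 250 before and 50 after the start given by RefSeq for GRCh38.p14, read 5′ to 3′ on the gene's strand. Capitals mark matches, on either strand, to the TATA box (TATAAA), the AP-1 site (TGACTCA), an ETS site (CCGGAAG), the E-box of MYC (CACGTG), the SP1 box (GGGCGG) or the core of the interferon-stimulated response element, which holds 2 copies of GAAA with any 2 bases between them. The coordinates are chr2:10448278-10448577 for ODC1, chr15:79971147-79971446 for BCL2A1, chr10:35642247-35642546 for FZD8 and chr3:196082041-196082340 for TFRC, all on the minus strand.
ODC1: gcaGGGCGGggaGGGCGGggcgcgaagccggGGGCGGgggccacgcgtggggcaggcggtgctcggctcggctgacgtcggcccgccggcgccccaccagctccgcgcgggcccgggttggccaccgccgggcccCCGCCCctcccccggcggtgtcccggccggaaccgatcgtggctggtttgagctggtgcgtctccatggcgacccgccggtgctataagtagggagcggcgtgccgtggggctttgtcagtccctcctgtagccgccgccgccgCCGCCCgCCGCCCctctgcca
BCL2A1: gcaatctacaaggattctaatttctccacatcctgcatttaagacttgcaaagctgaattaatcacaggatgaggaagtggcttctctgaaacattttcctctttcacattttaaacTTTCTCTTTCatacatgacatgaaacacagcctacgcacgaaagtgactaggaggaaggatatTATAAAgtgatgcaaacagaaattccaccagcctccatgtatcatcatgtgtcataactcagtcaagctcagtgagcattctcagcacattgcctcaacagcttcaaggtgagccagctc
FZD8: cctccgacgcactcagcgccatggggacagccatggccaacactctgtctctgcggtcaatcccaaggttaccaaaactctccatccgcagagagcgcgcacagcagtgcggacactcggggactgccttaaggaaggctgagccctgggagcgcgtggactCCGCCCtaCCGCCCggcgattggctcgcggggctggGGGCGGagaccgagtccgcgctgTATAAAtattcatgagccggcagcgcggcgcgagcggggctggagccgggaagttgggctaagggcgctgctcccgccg
TFRC: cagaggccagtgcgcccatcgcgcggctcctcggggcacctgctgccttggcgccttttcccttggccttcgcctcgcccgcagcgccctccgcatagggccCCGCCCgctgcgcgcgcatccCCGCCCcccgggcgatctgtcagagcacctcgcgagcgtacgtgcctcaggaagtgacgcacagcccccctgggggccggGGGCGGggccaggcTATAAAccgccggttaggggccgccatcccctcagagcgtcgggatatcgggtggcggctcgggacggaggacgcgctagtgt
ODC1 has 79.0% G and C and 6 matches to GGGCGG. BCL2A1 has 41.0% G and C, no SP1 box, the letters TATAAA at -70 and the response element core at -133 from the RefSeq start. That start lies inside the GENCODE gene model of BCL2A1, and so does the whole window. FZD8 and TFRC have 3 GGGCGG each and a TATAAA at -29 and -33.

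Promoters from RefSeq were found for 50 of the 70 genes and 7318 of the other genes at 2 FPKM or more. CERK, WNT7B and HAS2 were among those without an entry. TATAAA was present in 5 of the 50 members' promoters (BCL2A1, FAM168B, FZD8, GDF11 and TFRC), or 10%, beside 4.91% of the other genes and 11.5% of the 35116 promoters of the table. The response element core was present in 1 of the 50, BCL2A1 (2%), beside 2.73% and 3.57%. The AP-1 letters were in 2%, 2.87% and 4.95%. The E-box was in 10%, 10.9% and 7.26%, and the SP1 box was in 72%, 72.7% and 45%. Beside the other genes at 2 FPKM or more, the largest gap was that of CCGGAAG, the letters of an ETS site, whereas beside all promoters it was that of the SP1 box. CCGGAAG was in 4 of the 50 members' promoters, BRI3BP, C3orf80, ENTPD7 and ZNF778, which is 8%, beside 22.2% of the other genes and 10.3% of all promoters. These are shares of letters in a fixed window and say nothing about binding.

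Among the other measures that the rule did not use, several lay close to those of the other genes at 2 FPKM or more and some did not. The median promoter had 70.5% G and C in members and 65.7% in the other genes, with an observed over expected CpG ratio of 0.858 and 0.863. Median exon length was 4994 and 5145 bases, and the longest coding sequence had a median of 406 and 474 codons. The median gene span was larger in members, 46160 bases beside 32944, and the median number of exon blocks smaller, 8 beside 11. The 3′ untranslated region of the transcript with the longest coding sequence had a median of 1581 bases in members and 1012 in the other genes. The heptamer TATTTAT, part of AU-rich elements that mark short-lived RNAs, was found there in 31 of 70 members (44.3%) and 31.8% of the other genes, and a longer region has more room for it. The ranges overlap widely, with the middle 50% of members' 3′ regions between 613 and 4028 bases and that of the other genes between 388 and 2317.

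Signal proteins and their receptors formed a group of 11 genes, and 3 of them belong to WNT signalling. WNT proteins are secreted lipoproteins that bind Frizzled receptors, and the ligands WNT5A and WNT7B and the receptor FZD8 were all lower. FZD8 (ENSG00000177283, chr10:35638249-35642278, minus strand) was at 25.3, 25.7 and 24.7 FPKM untreated and 12.7, 12.3 and 12.02 FPKM treated. WNT7B was at 7.65, 8.68 and 7.27 FPKM untreated and 3.82, 4.18 and 3.92 FPKM treated. WNT5A was at 8.91, 9.89 and 8.86 FPKM untreated and 5.17, 5.31 and 5.46 FPKM treated. For all 3 genes the treated libraries lay within a narrow band, and FZD8 had the lowest ratio at 0.489. Of the 39 other measured genes of the WNT list, 12 were called lower and 6 higher, and 21 were not called, with a median log2 fold change of -0.05. The median was 0.00 over all genes tested and also -0.05 over protein-coding genes at 2 FPKM or more, of which 33.8% were called lower. These values stand beside the counts and medians of every list below, although the lists also hold genes under 2 FPKM. No list was tested. The called genes with the largest changes went both ways. FZD2, another Frizzled receptor, rose from 9.47 ± 0.377 to 15.95 ± 0.517 FPKM (n = 3, log2 fold change 0.75, limma adjusted p = 3.8e-05). DKK3, of the Dickkopf family, rose from 3.45 ± 0.121 to 5.84 ± 0.298 FPKM (0.74, limma adjusted p = 1.2e-04). LEF1, a nuclear partner of β-catenin, fell from 2.99 ± 0.149 to 1.81 ± 0.0315 FPKM (-0.69, limma adjusted p = 2.6e-04) and missed the limit of the 70 genes with a ratio of 0.606.

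The TGF-β and BMP family gave 3 members. GDF11, a secreted ligand that signals through activin receptors, was at 4.99, 4.97 and 5.06 FPKM untreated and 2.86, 2.68 and 3.06 FPKM treated. BMP6, a bone morphogenetic protein known for inducing hepcidin in the liver, was at 4.14, 3.73 and 4.22 FPKM untreated and 2.45, 2.36 and 2.20 FPKM treated. PMEPA1, a membrane protein induced by TGF-β that restrains SMAD signalling, was at 7.58, 8.92 and 7.33 FPKM untreated and 3.68, 5.12 and 5.42 FPKM treated. PMEPA1 varied most of the 3 genes, since its first treated library lay well below the other two. Of the 47 other genes of the list, 17 were called lower, 14 higher and 16 not, with a median log2 fold change of -0.07. The largest change was opposite to that of the members. FST, follistatin, which binds and blocks activins and GDF11, rose from 19.9 ± 2.46 to 88.4 ± 7.92 FPKM (n = 3, log2 fold change 2.15, limma adjusted p = 2.8e-05). SMAD6, an inhibitory SMAD, fell from 0.777 ± 0.0203 to 0.410 ± 0.0627 FPKM (-0.79, limma adjusted p = 0.00604).

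STC1 (ENSG00000159167), stanniocalcin 1, a secreted glycoprotein linked to calcium and phosphate balance, was the second most abundant member. It was at 202.5, 224.4 and 206.0 FPKM untreated and 103.6, 112.9 and 108.8 FPKM treated. The highest treated value was well below the lowest untreated value, and the ratio was 0.514. SHISAL1, a Shisa-like membrane protein, was at 2.60, 2.67 and 2.69 FPKM untreated and 0.900, 1.03 and 1.02 FPKM treated, and SEMA5A, a transmembrane semaphorin of axon guidance, at 3.49, 3.49 and 3.15 FPKM untreated and 1.66, 1.53 and 1.51 FPKM treated. Both were low, and both had ratios under 0.5 (0.371 and 0.464). The group was completed by the adhesion receptor ADGRA3, with 10.6, 10.6 and 10.4 FPKM untreated and 5.57, 5.71 and 5.29 FPKM treated, and by SMO, the signal transducer of the Hedgehog pathway, with 5.34, 5.22 and 4.46 FPKM untreated and 2.94, 2.79 and 2.85 FPKM treated. Neither gene's groups came near each other. ADGRA3 and FZD8 were the 2 members in a list of 164 measured genes of G protein-coupled receptors and their signalling. The list was taken by name and does not hold SMO or the olfactory receptors OR51B4 and OR51B5, which are receptors of this kind. Its other 162 genes were called lower in 33 cases and higher in 32. There the largest changes were rises of the chemokine receptors CCR1, from 0.457 ± 0.134 to 3.79 ± 0.403 FPKM (n = 3, log2 fold change 2.82, limma adjusted p = 8.6e-05), and CCR3, from 0.0780 ± 0.0366 to 0.512 ± 0.0631 FPKM (1.80, limma adjusted p = 0.00178), with ADGRE1 between them, from 0.299 ± 0.0808 to 1.54 ± 0.214 FPKM (2.05, limma adjusted p = 4.2e-04).

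**Figure D3:**
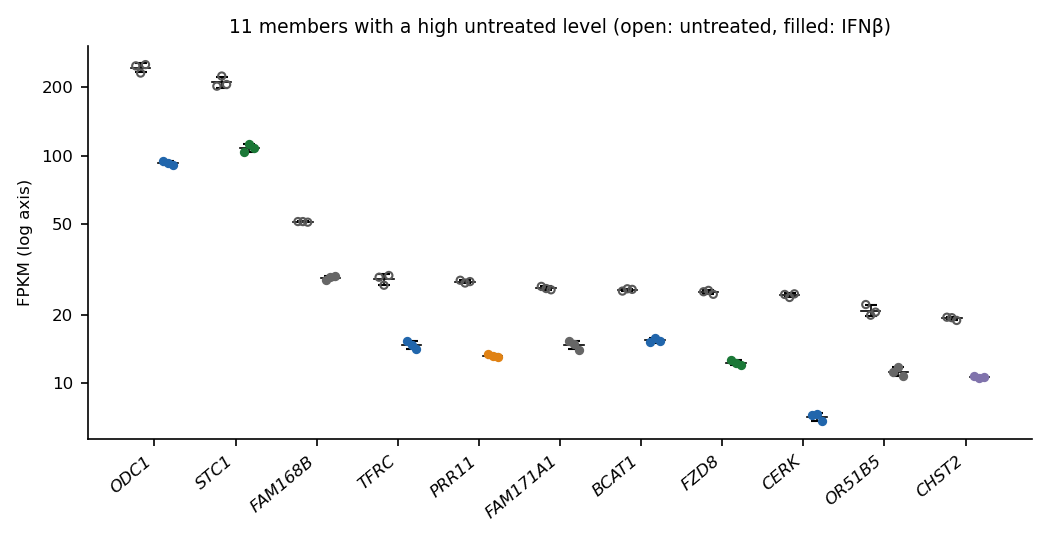
FPKM (vertical, log axis) of 11 members with a high untreated level in each library, with open circles for untreated and filled circles for treated libraries. Horizontal lines are means and bars are S.D. (n = 3). ODC1 and STC1 exceed 200 FPKM untreated, and the other 9 genes lie between 19.3 and 51.4 FPKM.

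The matrix and glycan group of 9 genes held 2 of the enzymes that make hyaluronan, a long unsulfated sugar chain of the pericellular matrix. HAS2 (ENSG00000170961) was at 6.45, 6.30 and 5.82 FPKM untreated and 2.88, 3.03 and 2.91 FPKM treated. HAS3 was at 1.99, 2.28 and 1.76 FPKM untreated and 1.04, 0.962 and 0.819 FPKM treated. HAS2 was the more abundant of these hyaluronan synthases, and their ratios were 0.475 and 0.468. CHST2, a sulfotransferase of N-acetylglucosamine, was at 19.6, 19.5 and 18.9 FPKM untreated and 10.8, 10.6 and 10.7 FPKM treated. MAN1A2, a Golgi mannosidase that trims N-glycans, was at 12.5, 12.1 and 12.9 FPKM untreated and 7.56, 7.57 and 7.28 FPKM treated. These 4 genes are the members of a list of 129 measured genes of glycosylation and sulfation. The other 125 genes of that list were called lower in 36 cases and higher in 17, with 72 not called and a median log2 fold change of -0.04. Among them ST6GAL2, a sialyltransferase, fell from 0.357 ± 0.0339 to 0.140 ± 0.0488 FPKM (n = 3, log2 fold change -0.95, limma adjusted p = 0.0205), HS3ST5, a heparan sulfate sulfotransferase, rose from 0.415 ± 0.0700 to 0.712 ± 0.0969 FPKM (0.66, limma adjusted p = 0.0252), and CHST3, a chondroitin sulfotransferase, fell from 8.84 ± 0.118 to 5.62 ± 0.318 FPKM (-0.65, limma adjusted p = 1.4e-04). DSEL, a dermatan sulfate epimerase-like protein not in that list, had a ratio of 0.565.

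Proteins of the matrix and of cell contact made up the rest of the group. ANOS1, a secreted glycoprotein known from Kallmann syndrome, was at 7.27, 6.80 and 7.53 FPKM untreated and 3.57, 3.01 and 3.21 FPKM treated. TGFBI, an integrin-binding matrix protein induced by TGF-β, was at 6.16, 6.97 and 6.61 FPKM untreated and 3.35, 3.56 and 3.99 FPKM treated. ANOS1 had the lowest ratio of the group at 0.453, and TGFBI was at 0.552. AJAP1 of adherens junctions (ratio 0.541) and the polarity protein PARD6G (0.597) were expressed at 3.75 and 2.73 FPKM untreated. Of the 62 other genes of the list of integrins, laminins and matrix glycoproteins, 13 were called lower and 16 higher.

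In the cell cycle, chromatin, RNA and survival group of 12 genes, BCL2A1 stood lowest. BCL2A1 (ENSG00000140379, chr15:79960889-79971446, minus strand) encodes an anti-apoptotic BCL2 protein and was at 7.04, 6.40 and 7.66 FPKM untreated and 2.55, 2.70 and 2.44 FPKM treated. Its groups were wide apart at a ratio of 0.364, although its lowest library held 67 fragments. PRR11, a proline-rich protein of the cell cycle, was at 28.4, 27.6 and 28.0 FPKM untreated and 13.5, 13.2 and 13.02 FPKM treated. ZNF778, a KRAB zinc finger protein, was at 2.81, 2.82 and 2.72 FPKM untreated and 1.19, 1.31 and 1.23 FPKM treated. Both PRR11 and ZNF778 varied little between libraries. ZNF778 was the lone member in a list of 468 measured KRAB and other zinc finger genes, of whose other 467 genes 49 were called lower and 83 higher. The list was taken by name and does not hold every zinc finger gene, for example ZMAT3.

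DNA replication gave members as well. GINS4, a subunit of the replicative helicase, was at 6.94, 6.49 and 6.54 FPKM untreated and 3.06, 3.30 and 3.32 FPKM treated. E2F2, an S phase transcription factor, was at 2.37, 2.20 and 2.71 FPKM untreated and 1.52, 1.24 and 1.48 FPKM treated. E2F2 was below GINS4 in every library. Of the 50 genes of the replication list that are no members, 30 were called lower and 6 higher, with 14 not called and a median log2 fold change of -0.17. Over all protein-coding genes at 2 FPKM or more, 33.8% were called lower, and no test of the list was made. The largest changes among the others were E2F8, a repressor E2F, from 4.08 ± 0.299 to 2.46 ± 0.0101 FPKM (n = 3, log2 fold change -0.71, limma adjusted p = 3.1e-04), CCNE1, cyclin E, from 4.48 ± 0.0884 to 3.02 ± 0.323 FPKM (-0.56, limma adjusted p = 0.0025), and MCM6, a helicase subunit, from 35.8 ± 0.666 to 24.5 ± 0.211 FPKM (-0.54, limma adjusted p = 9.3e-06).

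Splicing and RNA binding gave RBM14 and SNRPD3. RBM14, an RNA-binding coactivator of paraspeckles, was at 19.5, 18.6 and 19.6 FPKM untreated and 10.5, 10.3 and 9.76 FPKM treated. SNRPD3, a core Sm protein of the spliceosome, was at 13.3, 12.7 and 13.01 FPKM untreated and 7.28, 7.36 and 7.198 FPKM treated. In GENCODE release 29, SNRPD3 shares 12.6% of its exon bases with GUCD1 on the opposite strand. GUCD1 was at 22.2 FPKM untreated and 22.5 FPKM treated. Of the 129 other genes of that list, 55 were called lower and 18 higher with a median log2 fold change of -0.09. Beside them, 33.8% of protein-coding genes at 2 FPKM or more were called lower, with a median of -0.05. RBM43 rose from 1.56 ± 0.255 to 4.08 ± 0.177 FPKM (n = 3, log2 fold change 1.35, limma adjusted p = 3.0e-04), RBM11 rose from 0.110 ± 0.0582 to 0.432 ± 0.0567 FPKM (1.37, limma adjusted p = 0.00919), and HNRNPH2 fell from 42.9 ± 0.645 to 29.2 ± 0.897 FPKM (-0.55, limma adjusted p = 3.0e-05). The remaining members of the group were HOXD8 (a homeobox factor, ratio 0.551), SAMD1 (a binder of CpG islands, 0.578), ZMAT3 (a p53 target that binds RNA, 0.578) and CBX2 (a Polycomb protein, 0.599). Of the 32 other measured p53 targets, 7 were called lower and 12 higher.

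**Figure D4:**
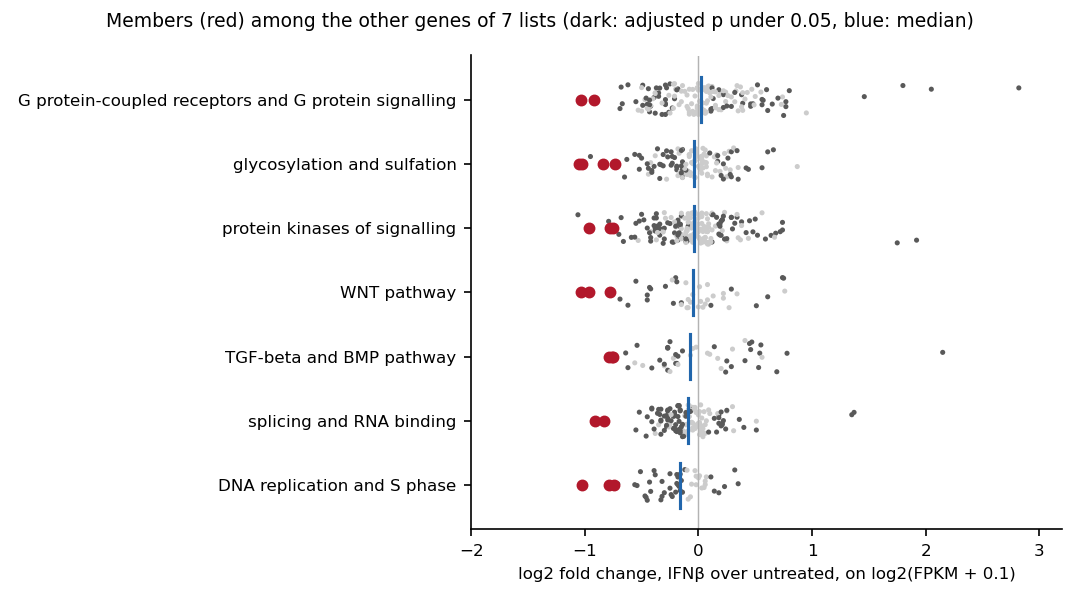
log2 fold change on log2(FPKM + 0.1) (horizontal) of the measured protein-coding genes of the 7 lists that hold at least 2 members. Red points are members, dark points other genes with a limma adjusted p under 0.05, light points other genes without, and blue lines the median of the other genes. The medians lie between -0.17 for DNA replication and 0.02 for G protein-coupled receptors, and the members lie at the left because the rule chose them.

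Among 9 genes of kinases, second messengers and calcium, 2 act on protein kinase A, the cAMP-dependent kinase. PRKAR2A, a regulatory subunit that holds the kinase inactive without cAMP, was at 15.4, 15.1 and 15.8 FPKM untreated and 7.85, 7.68 and 8.08 FPKM treated. PKIA, an inhibitor peptide of the same kinase, was at 5.61, 5.40 and 5.43 FPKM untreated and 2.77, 3.18 and 3.11 FPKM treated. Both restrain the kinase, and their ratios were 0.510 and 0.551. PRKCA, protein kinase C alpha, was at 11.2, 11.3 and 11.6 FPKM untreated and 6.498, 6.64 and 6.99 FPKM treated. MAP3K20, the ribotoxic stress kinase ZAK, was at 8.92, 9.30 and 9.07 FPKM untreated and 5.15, 5.29 and 5.35 FPKM treated. PRKAR2A, PRKCA and MAP3K20 are the members of a list of 199 measured genes of signalling kinases. The list was taken by name and also holds subunits, adaptors, inhibitors and some unrelated genes with similar names, such as PKNOX1. Of the other 196, 53 were called lower and 35 higher, with a median log2 fold change of -0.04. PIK3AP1, an adaptor of phosphoinositide 3-kinase, rose from 0.735 ± 0.0903 to 3.05 ± 0.102 FPKM (n = 3, log2 fold change 1.92, limma adjusted p = 3.3e-05) and PRKD2 rose from 5.40 ± 0.493 to 18.4 ± 0.214 FPKM (1.75, limma adjusted p = 7.0e-06). MAPKAP1, the largest fall among the other genes of the list, is among the genes left out by name.

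KCNMA1, the pore subunit of the calcium-activated BK potassium channel, was at 11.3, 12.04 and 11.7 FPKM untreated and 5.95, 5.85 and 6.04 FPKM treated. It was the lone member among 85 ion channels and pumps, of whose other 84 genes 15 were called lower and 18 higher. PTPN22, a tyrosine phosphatase best known in lymphocytes, was at 6.38, 5.88 and 6.89 FPKM untreated and 3.42, 3.64 and 3.56 FPKM treated, in libraries whose leukocyte markers were under 0.1 FPKM. The group's other genes were KCTD12 (an auxiliary subunit of GABA-B receptors, ratio 0.578), GEM (a small GTP-binding protein, 0.590) and CALB2 (calretinin, 0.599).

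The cytoskeleton and traffic group of 6 genes was led by RFLNB, a filamin-binding protein. RFLNB was at 16.3, 16.2 and 16.1 FPKM untreated and 7.22, 6.80 and 7.34 FPKM treated, a ratio of 0.441. Its treated libraries were all below 8 FPKM. DCDC2C (a doublecortin domain protein, ratio 0.495), HIP1 (a clathrin and actin adaptor, 0.526) and the motor MYO5A (0.584) lay between 2.94 and 3.96 FPKM untreated. CFAP126, a protein of motile cilia, was at 7.46, 8.40 and 8.32 FPKM untreated and 4.91, 4.65 and 4.11 FPKM treated. All of its exon bases lie under SDHC on the opposite strand, which was at 36.3 FPKM untreated and 32.1 FPKM treated. Whether the counting used strand is not given in the sources used here, so the reads of CFAP126 and SDHC cannot be told apart.

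The last 12 genes have other or little known roles. FAM168B, a membrane protein of neurons, was the third in abundance with 51.5, 51.5 and 51.1 FPKM untreated and 28.5, 29.5 and 29.5 FPKM treated. FAM171A1 was at 26.7, 26.1 and 25.8 FPKM untreated and 15.3, 14.9 and 14.1 FPKM treated. FAM172A (chr5:93618069-94111699, minus strand) was at 4.80, 4.79 and 4.88 FPKM untreated and 1.80, 2.00 and 1.94 FPKM treated. FAM172A had the lowest ratio of these 12 genes, 0.397. The ratios of LNP1, C3orf80, BRI3BP, TMEM168 and TMEM19 were between 0.494 and 0.599. In GENCODE release 29, LNP1 shares 9.16% of its exon bases with TOMM70 on the opposite strand. TOMM70 was at 39.1 FPKM untreated and 38.5 FPKM treated. GAGE13, a cancer-testis antigen, was at 2.58, 1.80 and 1.84 FPKM untreated and 1.74, 0.642 and 0.432 FPKM treated. Its first treated library nearly reached the untreated values and its lowest library held 7 fragments. GAGE genes are near-identical copies, so this value is uncertain.

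A neighbourhood on chromosome 11 held 3 members. HBG2 is the fetal gamma globin gene, and OR51B4 and OR51B5 are olfactory receptor genes. The gene model of HBG2 used here spans 252416 bases and contains OR51B4 and nearly all of OR51B5, so these are not separate neighbours. OR51B5 (ENSG00000167355, chr11:5303444-5505652, minus strand) was at 22.2, 20.0 and 20.6 FPKM untreated and 11.2, 11.8 and 10.8 FPKM treated. OR51B4 (chr11:5301014-5301946, minus strand) was at 17.3, 16.9 and 17.3 FPKM untreated and 9.26, 9.52 and 9.31 FPKM treated. HBG2 (chr11:5253190-5505605, minus strand) was at 2.76, 3.97 and 4.26 FPKM untreated and 1.74, 2.29 and 1.69 FPKM treated. The ratios of these genes were 0.538, 0.545 and 0.520, and HBG2 and OR51B5 share 37 exon bases on the same strand, so their reads could be split between them. A further 49.8% of the exon bases of HBG2 lie in another gene model on the same strand that was listed at 0 in every library. The model ENSG00000239920 on that strand covers 34.3% of the exon bases of HBG2 and was at 0.184 FPKM untreated and 0.233 FPKM treated. HBG2 had 41 fragments in its lowest library. Genes in the same neighbourhood moved both ways. OR52D1 fell from 1.4 ± 0.4 to 0.713 ± 0.0405 FPKM (n = 3, log2 fold change -0.85, limma adjusted p = 0.0161) and OR51B2 was at 3.96 and 3.29 FPKM (-0.25, limma adjusted p = 0.121). Beyond them TRIM6 rose from 1.299 ± 0.0725 to 2.25 ± 0.0801 FPKM (0.75, limma adjusted p = 4.3e-04), TRIM22 from 3.34 ± 0.302 to 47.8 ± 0.512 FPKM (3.80, limma adjusted p = 1.4e-07) and TRIM5 from 8.74 ± 0.216 to 30.1 ± 0.447 FPKM (1.77, limma adjusted p = 1.1e-07).

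**Figure D5:**
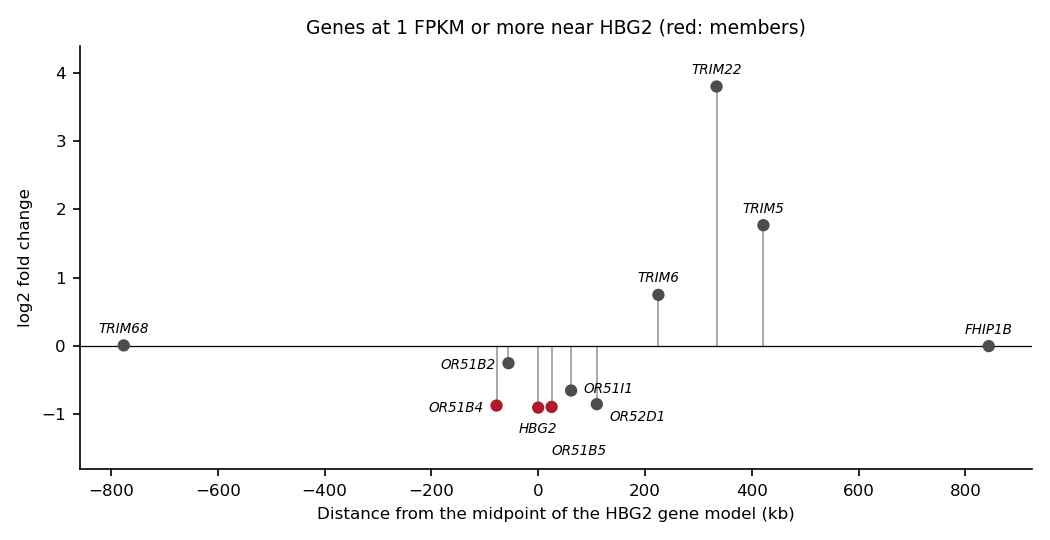
log2 fold change (vertical) of protein-coding genes with an untreated mean of at least 1 FPKM by their distance in kb from the midpoint of the HBG2 gene model (horizontal). Red points are HBG2, OR51B4 and OR51B5. The members lie between -0.90 and -0.87, TRIM6, TRIM22 and TRIM5 lie above 0 on one side, and TRIM68 and FHIP1B farther out lie close to 0.

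Further members lay near each other. CERK and WNT7B are 707282 bases apart on chromosome 22, and ATPSCKMT and SEMA5A are 680255 bases apart on chromosome 5. Chromosome 22 held 6 members, CERK, SHISAL1, GCAT, WNT7B, SNRPD3 and OSBP2, of its 205 protein-coding genes at 2 FPKM or more, which is 2.93% beside 0.788% over all chromosomes. Chromosome 3 held 8 of 533 genes (1.5%), and chromosomes 9, 14 and 21 held none of 358, 283 and 82 genes. The genes left out by name count among these genes but not as members. Of them ACO1 and MAPKAP1, which met the measured criteria, lie on chromosome 9. Exons of 33 of the 70 genes overlap those of another annotated gene, 26 of them on the opposite strand. For 2 of the 70, CFAP126 and SNRPD3, the overlap covers at least 10% of the exon bases under a gene expressed at 0.5 times their level or more.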

How the data were processed

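RNA was sequenced from 6 libraries of HT1080 cells, 3 per group. Per the labels the authors used fastp, HISAT2 and StringTie with the build GRCh38, and they deposited FPKM per Ensembl gene and library. Strandedness and annotation are not given in the sources used here. Gene locations, exon lengths and overlaps are from GENCODE release 29, which lacks 4436 of the 62710 IDs. Its exon lengths gave whole fragments for 16427 genes, whereas 18876 were recovered from the ratios between libraries alone. The gene models behind the FPKM may differ from those used here, and so may the overlaps. Depth came from the value of a single fragment. With it, fragments were recovered for 100% of the 35303 genes above 0, and their sums were 99.25% to 99.29% of the depth. Of the 70 genes, 8 had under 100 fragments in some library.

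The groups were tested in limma (lmFit, eBayes with trend; version 3.58.1 in R 4.3.3) on log2(FPKM + 0.1) with Benjamini-Hochberg adjustment, for a mean of at least 0.1 FPKM. Fold changes on this scale understate those of low genes. A permutation test of 3 against 3 libraries cannot go below p = 0.10, and none was run. In a simulation of this design, 87% of 100 genes at 0.6-fold and 94% of 100 at 0.5-fold were called, and 29 of 210 calls were of unchanged genes (20256 tested). That share of false calls is above the nominal 0.05. The simulation assumed a fixed dispersion and changed only these genes, all at 2 FPKM or more. In the data 17.5% of genes were called lower and 15.2% higher, so the simulated shares do not carry over to them.

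The members, lists and roles were chosen with earlier results of these data known. The text names the members of a list, the 12 lowest ratios, the 12 highest untreated levels, 3 genes on each side of the limit and, for lists with at least 2 members, up to 3 called non-members. Some items, among them 2 of the 70 members, are not reported here by name. Other members and the chromosome 11 neighbours were named after their values were seen. The lists, taken by symbol or name pattern, were limited to protein-coding genes after their values were seen, and the 3′ region was added then. Alternatives covered pseudocounts, filters, rescaling, the trend, a replicate block, leaving out each library, thresholds and, added after seeing the data, limma-voom. Python 3.11.15 and pandas 2.3.3 did the rest.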

Additional observations from a re-analysis of the deposited data

How the results depend on the processing

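The limits of the rule decide how many genes it takes. A ratio of at most 0.5 left 19 genes and of at most 0.7 gave 262, and an untreated minimum of 5 FPKM left 45. Rescaling to equal FPKM totals gave 62 genes, by median ratio 65 and by quantiles 87, and a minimum of 1 FPKM gave 93. Leaving out each library in turn gave 66 to 79 genes, of which 62 to 68 were among the 70. When a log2 change of 1 or more was also required, 153 genes were called lower and 722 higher, in place of 3625 and 3153, and 15 of the 70 in place of 69. Without each library in turn, 3035 to 3259 genes were called lower and 2496 to 2785 higher, with 69 to 70 of the 70 called lower. Limma-voom on the recovered fragments called 4194 lower and 3739 higher, with all 70 among the lower. Of 1120 refits of single members under the alternatives of the limma fit, 1116 kept direction and side of the threshold, and the other 4 were those that called GAGE13. The choice of the genes on this contrast nearly fixes both, so these refits are no evidence of stability. GAGE13 was between -1.77 and -0.71 on the log2 scale over 17 settings and was not called in 13.

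The deviations of same-numbered libraries of the 2 groups had correlations of 0.053, -0.018 and 0.122 over 11996 genes. Those of differently numbered libraries were between -0.151 and 0.099. With 3 libraries per group these values cannot show whether the numbers pair the libraries. With the number as a replicate block, 3310 genes were called lower and 2759 higher, and 70 of the 70. Depth limits GAGE13, HBG2, PLAAT1, BCL2A1, LNP1, GCAT, CFAP126 and C3orf80, each under 100 fragments in some library.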
